A study of Mus musculus with 32 samples.

Results

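The genes described here are 7 ATP-binding cassette (ABC) transporters that export drugs and drug conjugates from mouse cells: Abcc1, Abcc4, Abcc5 and Abcc3 of the multidrug resistance protein subfamily, Abcb1a and Abcb1b, which together stand for human P-glycoprotein, and Abcg2, the breast cancer resistance protein. They were chosen by name from the field of drug resistance in neuroblastoma, and their probes were found by the RefSeq accession that each probe carries. The 7 genes, out of 20660 named on the array, are read by 10 probes out of 27235 named ones, of which 4 belong to Abcc5 and 1 to each of the others. RNA levels were measured on 1-colour Agilent arrays in 28 samples from the strain 129+Ter/SvJcl, taken from mice aged 3 weeks. Passaged spheres (n = 4) were cultures of TH-MYCN hemizygote cells passaged 5 times, and primary spheres (n = 8) were such cultures at 8 days, a sphere being a floating cluster of cells. TH-MYCN SMG (n = 8) is the superior mesenteric ganglion of TH-MYCN+/- mice, and wild-type SMG (n = 8) is the same sympathetic ganglion from mice without the transgene. The transgene is human MYCN under the tyrosine hydroxylase promoter, so it is driven in catecholamine-making cells, and such mice develop neuroblastoma. Whether each ganglion or culture came from a separate animal is not stated, so p-values measure the spread between these samples.

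ABC exporters bind a substrate between their membrane-spanning domains and use ATP hydrolysis to move it out of the cell. Those of the C subfamily carry organic anions and conjugates with glutathione or glucuronic acid, while P-glycoprotein and the breast cancer resistance protein carry bulky hydrophobic drugs and are known from endothelial barriers and from drug-resistant tumours. In human neuroblastoma, high ABCC1 and ABCC4 and low ABCC3 have been associated with poor outcome, and MYCN has been reported to act at promoters of several of these genes.

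Promoter sequences were available in RefSeq's table (GRCm38.p6) for 5 of the 7 genes, each from 250 bases before to 50 bases after a transcription start. The 3 shown here were picked because these genes moved together in the ganglia, as described below, and because the neighbouring Abcb1a and Abcb1b fell by unlike amounts in the spheres. Abcc5 and Abcg2 moved the same way in the ganglia, and matches in their stretches are given without the sequences. Capitals mark matches on either strand to 3 motifs, which are CACGTG (the E-box that MYC-family factors bind), GGGCGG (the GC box) and TGACNNNGC (the core of the antioxidant response element). The first is Abcc4 at chr14:118706170-118706469, minus strand, then Abcb1a at chr5:8566841-8567140, plus strand, then Abcb1b at chr5:8797897-8798196, plus strand, each written 5′ to 3′.
Abcc4: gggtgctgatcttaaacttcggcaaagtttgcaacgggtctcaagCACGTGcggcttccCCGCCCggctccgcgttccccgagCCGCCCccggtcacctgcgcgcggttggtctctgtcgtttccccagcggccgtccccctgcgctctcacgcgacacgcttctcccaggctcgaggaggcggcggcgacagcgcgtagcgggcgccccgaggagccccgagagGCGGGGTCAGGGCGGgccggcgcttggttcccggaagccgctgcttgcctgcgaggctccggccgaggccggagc
Abcb1a: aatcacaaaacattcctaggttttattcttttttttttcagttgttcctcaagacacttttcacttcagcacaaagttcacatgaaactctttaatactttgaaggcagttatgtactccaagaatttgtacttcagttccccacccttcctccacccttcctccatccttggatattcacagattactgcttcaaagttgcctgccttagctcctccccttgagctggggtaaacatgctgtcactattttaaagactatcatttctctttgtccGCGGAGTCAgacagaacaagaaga
Abcb1b: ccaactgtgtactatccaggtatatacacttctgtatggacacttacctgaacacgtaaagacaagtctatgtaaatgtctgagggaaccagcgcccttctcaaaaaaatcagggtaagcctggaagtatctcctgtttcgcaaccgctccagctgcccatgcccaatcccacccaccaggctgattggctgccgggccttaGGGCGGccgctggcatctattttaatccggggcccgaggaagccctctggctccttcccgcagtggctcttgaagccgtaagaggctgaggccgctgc
The Abcc4 stretch held 1 E-box, which begins at base -205 relative to the start, together with 3 GC boxes and 1 antioxidant core, none of which overlap. A further listed start of Abcc4, not shown, held 1 antioxidant core and no match to the other motifs. Abcb1a held 1 antioxidant core and no match to the other motifs, and Abcb1b held 1 GC box and no match to the others. No match to the 3 motifs was found in the Abcc5 stretch. Of the 3 listed starts of Abcg2, 1 held no match, 1 held 2 GC boxes and 1 held 4. Over all 32851 promoters of the table, 7.15% held the E-box, 35.7% the GC box and 12.4% the antioxidant core. GC content was 72.7% for the Abcc4 stretch, 40.3% for Abcb1a and 55.0% for Abcb1b.

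Levels are given as log2 of the processed spot signal minus the 75th percentile of the array, so that 0 is the signal of a probe at that percentile and a step of 1 is a doubling. Probes differ in how brightly they hybridise, so levels are compared between samples for the same probe and not between probes. A spot is called well above background by Agilent's own flag, and this held for 49.0% to 53.9% of spots on passaged sphere arrays, 57.0% to 59.7% on primary sphere arrays, 59.1% to 64.1% on TH-MYCN SMG arrays and 60.4% to 65.7% on wild-type SMG arrays. Passaged cultures were hybridised to 2 arrays each, which were averaged. All samples carried Th, the tyrosine hydroxylase of sympathetic cells, at 8.07 ± 0.20 in passaged spheres (SD, n = 4), 7.81 ± 0.15 in primary spheres, 7.72 ± 0.34 in TH-MYCN SMG and 8.57 ± 0.18 in wild-type SMG (SD, n = 8 each). The ganglia were on slides 1 and 2, each with 4 samples of either genotype, and the spheres on slides 3 and 4, each with 4 primary spheres and 1 array of every passaged culture. Primary spheres stood apart by slide in markers of other cells, with a mean glial score of -1.34 on slide 3 and -2.93 on slide 4, and a fibroblast score of -2.91 and -4.77, where a score is the mean log2 level of a list.

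Among the C subfamily, Abcc1, which exports glutathione conjugates and drugs such as vincristine and anthracyclines, varied least. It read 1.75, 1.49, 1.60 and 1.45 in passaged spheres 1 to 4. Primary spheres ran from 1.26 through a median of 1.55 to 1.88, TH-MYCN SMG from 1.24 through 1.37 to 1.46, and wild-type SMG from 1.29 through 1.63 to 1.82. The 4 groups overlapped, and TH-MYCN SMG had the lowest mean and the narrowest spread (SD 0.07, against 0.14 to 0.20 in the other groups). Their order by mean was wild-type SMG, passaged spheres, primary spheres and TH-MYCN SMG, and no neighbours in this order were separate in range.

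Abcc4, an exporter of cyclic nucleotides, prostaglandins and nucleoside drugs, read 0.52, 0.78, 0.75 and 0.28 in passaged spheres 1 to 4. Primary spheres ran from -0.08 through a median of 0.52 to 0.82, TH-MYCN SMG from 0.79 through 1.5 to 2.13, and wild-type SMG from 2.03 through 2.37 to 2.80. Levels descended from wild-type SMG through TH-MYCN SMG to the spheres, where passaged and primary cultures overlapped. TH-MYCN SMG overlapped with wild-type SMG through its highest sample, replicate 4, and with primary spheres through its lowest, replicate 8.

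Abcc5, another exporter of cyclic nucleotides and nucleotide analogues, is read by 4 probes, and the brightest, assigned to NM_013790, is used where not stated otherwise. It read 2.34, 2.02, 1.90 and 1.98 in passaged spheres 1 to 4. Primary spheres ran from 1.86 through a median of 2.36 to 2.67, TH-MYCN SMG from 3.03 through 3.20 to 3.59, and wild-type SMG from 3.29 through 3.70 to 3.82. All 12 sphere samples lay below all 16 ganglia. Primary spheres did not overlap between slides, with 1.86 to 2.26 on slide 3 and 2.46 to 2.67 on slide 4.

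Abcc3, an exporter of glucuronide conjugates and bile salts, was the one member with its highest level in TH-MYCN SMG. In passaged spheres 1 to 4 it read -6.26, -4.37, -3.49 and -5.21, of which replicate 3 alone was well above background on both arrays. Primary spheres ran from -6.39 through a median of -5.77 to -4.74, and only replicate 3 was well above background. It read 0.36, 0.48, 0.10, -0.93, 0.06, 0.14, -0.32 and 0.17 in TH-MYCN SMG 1 to 8, while wild-type SMG ran from -2.84 through -2.36 to -2.22, all well above background. TH-MYCN SMG thus stood above every sample of the other groups, with replicate 4 the lowest of its group, and wild-type SMG stood above every sphere.

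Abcb1a, the mouse P-glycoprotein gene known from the endothelium of the blood-brain barrier, fell into 2 far-separated levels. It read -3.01, -2.69, -3.16 and -3.08 in passaged spheres 1 to 4 and -2.96, -3.28, -3.01, -2.92, -3.59, -3.50, -3.72 and -3.82 in primary spheres 1 to 8, against 1.33, 1.03, 1.68, 2.39, 2.06, 1.77, 2.22 and 1.21 in TH-MYCN SMG 1 to 8. Wild-type SMG ran from 2.31 through a median of 2.67 to 2.96. The lowest ganglion lay 3.72 above the highest sphere, and the probe was well above background on every array. The 4 primary spheres of slide 3 lay above the 4 of slide 4.

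Abcb1b, the neighbouring P-glycoprotein gene, which is known from adrenal and other steroid-making tissue in mice, descended over 4 ranges. With the arrays of a culture averaged, these ranges did not overlap. It read -4.04, -4.33, -3.70 and -4.65 in passaged spheres 1 to 4, where replicate 1 alone was well above background on both arrays and 5 of the 8 arrays in all were. Primary spheres ran from -3.66 through a median of -3.21 to -2.69, TH-MYCN SMG from -1.94 through -1.47 to -0.84, and wild-type SMG from -0.62 through -0.44 to -0.13. The gap between passaged and primary spheres was 0.04, and those between primary spheres and TH-MYCN SMG and between TH-MYCN SMG and wild-type SMG were 0.75 and 0.22. On single arrays passaged and primary spheres did overlap, since 1 array of passaged sphere 3 read -3.24. Over all genes, the groups of these comparisons did not overlap for 9.17%, 57.8% and 21.5%, in the same order.

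Abcg2, which exports urate and drugs such as mitoxantrone and topotecan and is known from the side population of stem cells, read 1.40, 2.10, 2.32 and 1.61 in passaged spheres 1 to 4. Primary spheres ran from 1.04 through a median of 1.51 to 1.90, TH-MYCN SMG from 2.08 through 2.26 to 2.78, and wild-type SMG from 2.63 through 3.08 to 3.27. Ganglia of either genotype overlapped through TH-MYCN SMG 4, and passaged spheres 2 and 3 reached into the range of TH-MYCN SMG while no primary sphere did.

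**Figure D1:**
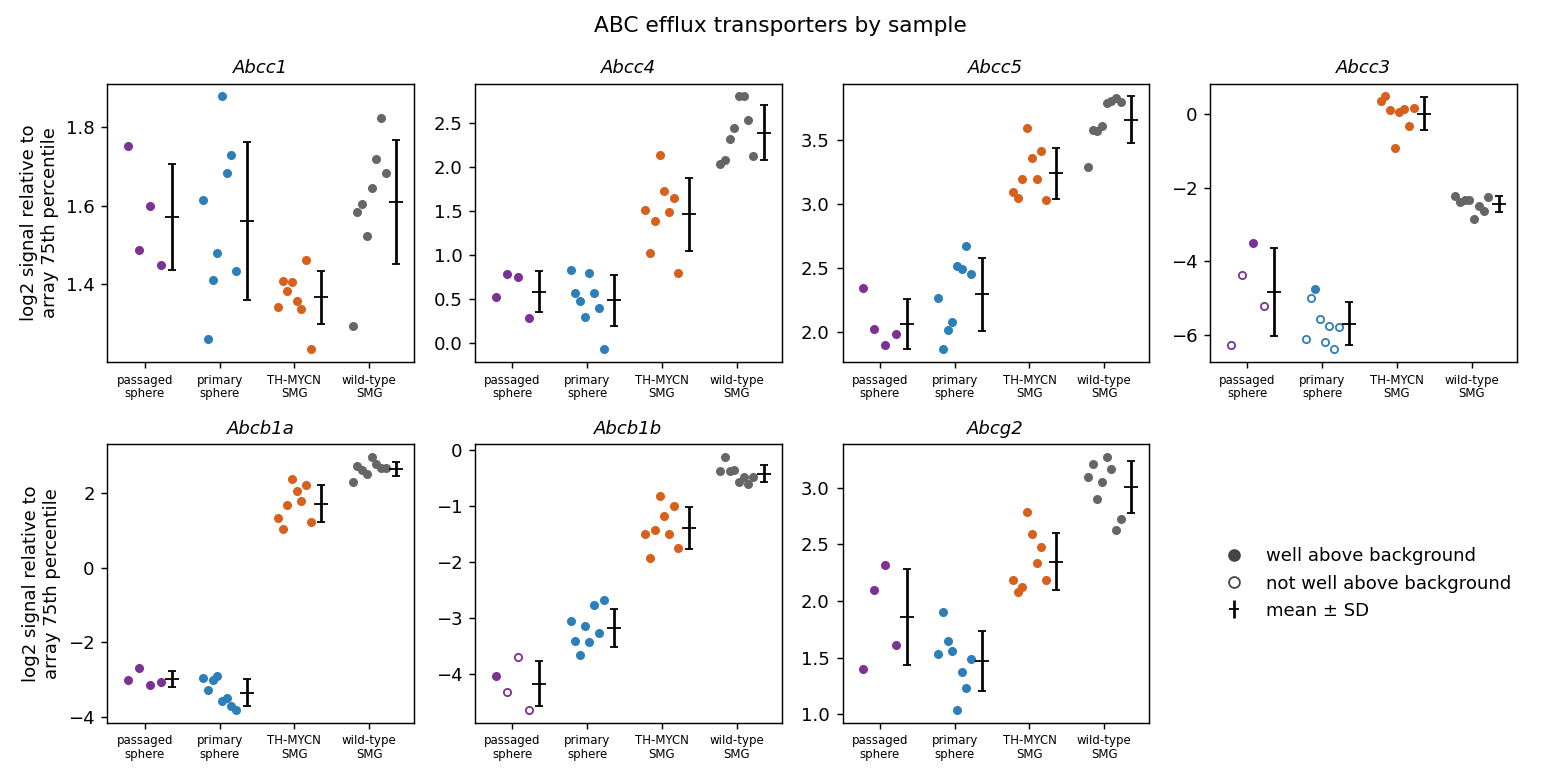
Each point is the level of a gene in 1 sample (log2 signal relative to the array's 75th percentile, vertical axes differ), by group, with the mean ± SD beside it. Abcc3 stood highest in the 8 TH-MYCN SMG, Abcb1a formed 2 levels with all ganglia at least 3.72 above all spheres, and Abcc1 overlapped between all groups.

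The comparison of TH-MYCN SMG with wild-type SMG asks how the transgene's tissue differs from the normal ganglion at 3 weeks. Abcc3 rose 5.44-fold in TH-MYCN SMG, while Abcb1b, Abcb1a, Abcc4 and Abcg2 fell 1.95-fold, 1.92-fold, 1.91-fold and 1.58-fold. Abcc5 and Abcc1 were lower by smaller steps, which were not called within slide 1 or with the median difference of all genes set to 0. Here and below, a call means an adjusted p under 0.05. The gene tests of this comparison are limma's moderated fit over 15846 genes with Benjamini-Hochberg adjustment over them. Of all these genes 65.6% were called, 21.9% higher and 43.7% lower, so that 6 of 7 members lower and 1 of 7 higher is read against a background in which most genes were called. In bulk samples, fewer cells of a type and less RNA per cell cannot be told apart.

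The log2 difference, TH-MYCN SMG minus wild-type SMG, was 2.44 for Abcc3 (SE 0.17, limma adjusted p = 4.31e-09), and 2.32 within slide 1 and 2.57 within slide 2. For Abcb1b it was -0.97 (SE 0.14, limma adjusted p = 2.52e-05), and -1.11 and -0.82 within slides 1 and 2. Abcc3 and Abcb1b were the members whose genotypes did not overlap, 2 of 7, against 21.5% of all genes. The fall of Abcb1a was -0.94 (SE 0.18, limma adjusted p = 0.000265), with -0.93 and -0.95 within the slides. For Abcc4 the difference was -0.93 (SE 0.17, limma adjusted p = 0.000246), with -0.71 and -1.15 within the slides, and for Abcg2 it was -0.66 (SE 0.12, limma adjusted p = 0.000194), with -0.77 and -0.55. Each of these 5 genes was called within either slide alone.

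Abcc5 differed by -0.42 (SE 0.10, limma adjusted p = 0.00173) and Abcc1 by -0.24 (SE 0.07, limma adjusted p = 0.00834). Within slide 1 neither was called, at -0.28 (adjusted p = 0.154) for Abcc5 and -0.12 (adjusted p = 0.406) for Abcc1, while within slide 2 they differed by -0.55 and -0.37 and both were called. With quantile normalization both stayed called, at -0.32 for Abcc5 and -0.21 for Abcc1. The same held with the median gene shifted to be equal on every array, at -0.41 and -0.23. The median log2 difference of all genes tested was -0.22, and with this median set to 0 Abcc5 was at -0.20 (adjusted p = 0.104) and Abcc1 at -0.02 (adjusted p = 0.814). On that scale the other members kept their calls, with Abcc3 at 2.67, Abcb1b at -0.74, Abcb1a at -0.72, Abcc4 at -0.71 and Abcg2 at -0.44, and 5172 genes were higher against 4147 lower, in place of 3467 and 6931.

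**Figure D2:**
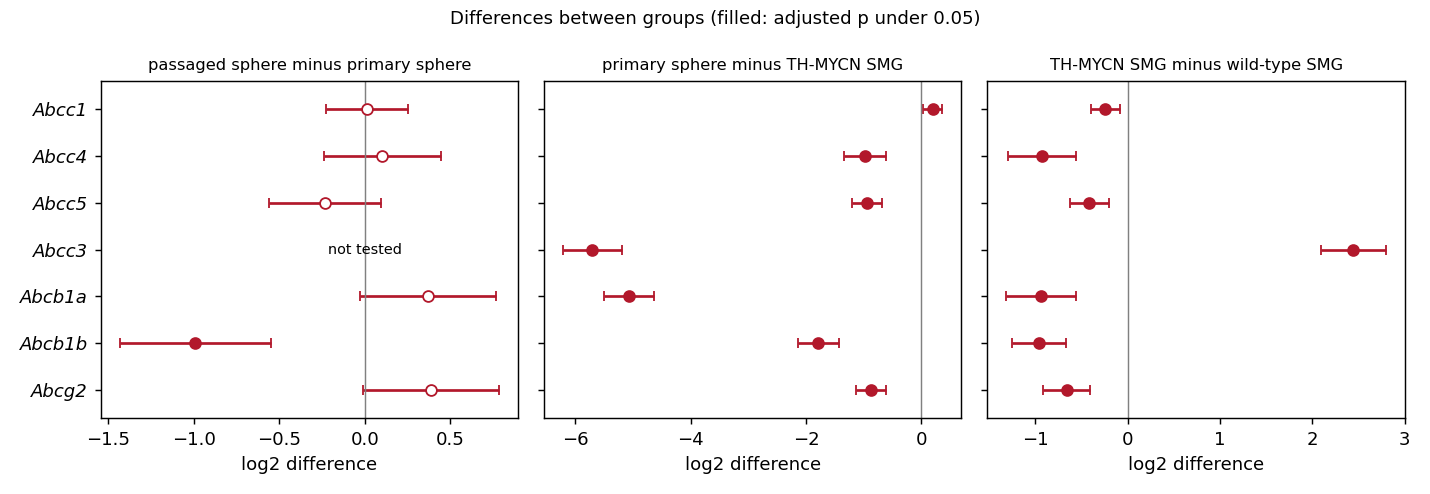
Points are log2 differences (horizontal axes, differing in range) with 95% confidence intervals from limma for passaged minus primary spheres, primary spheres minus TH-MYCN SMG, and TH-MYCN minus wild-type SMG; filled points passed an adjusted p of 0.05. Between genotypes Abcc3 is the member above 0 at 2.44, and between spheres and TH-MYCN SMG Abcc3 and Abcb1a lie at -5.70 and -5.06. Abcc1 lies above 0 between spheres and TH-MYCN SMG and turns to -0.08 with the median of all genes set to 0.

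Abcc5 is read by 4 probes for 2 accessions, and 3 of the 4 were called between genotypes. With every probe tested singly, where 65.5% of 20921 named probes were called, the brightest probe and the other one for NM_013790 (-0.39, SE 0.11, limma adjusted p = 0.00654) were called lower in TH-MYCN SMG, and so was 1 of the 2 probes for NM_176839 (-0.54, SE 0.10, limma adjusted p = 0.000271). The other probe for NM_176839 differed by -0.18 (95% interval -0.46 to 0.09, limma adjusted p = 0.217) and missed the threshold. The probes are not said to read different transcripts, and their sequences were not used here.

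Other genes of these families and of drug handling give the surroundings of the 7 exporters. Of 13 tested ABC genes of lipid and sterol transport 2 rose and 10 fell in TH-MYCN SMG, with a median log2 difference of -0.79 beside -0.22 for all genes. Among them Abca7, a phospholipid transporter, stood at -1.06 (SE 0.25, limma adjusted p = 0.00135) and Abca8a at -1.21 (SE 0.15, limma adjusted p = 6.86e-06). Of 11 ABC genes of mitochondria, lysosomes, peroxisomes and peptide transport none rose and 10 fell (median -0.58), led by Abcb9, a lysosomal peptide transporter (-1.15, SE 0.30, limma adjusted p = 0.00353). Of the 6 other C subfamily genes 1 rose and 3 fell (median -0.13), where the rise was that of Abcc8, the sulfonylurea receptor of potassium channels (1.06, SE 0.18, limma adjusted p = 9.8e-05), and of the 4 soluble ABC translation factors 1 fell (median 0.00).

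In glutathione synthesis and conjugation, which supplies the substrates of Abcc1, 2 of 18 tested genes rose and 14 fell (median -0.65), among them Mgst3, a microsomal glutathione transferase (-1.22, SE 0.16, limma adjusted p = 1.27e-05). Of 13 xenobiotic and oxidant sensors and their partners 2 rose and 5 fell (median -0.34), with Nqo1, a quinone reductase, at -1.19 (SE 0.16, limma adjusted p = 1.65e-05) and Hif1a, the hypoxia factor, at 0.80 (SE 0.11, limma adjusted p = 1.85e-05). Of 12 solute carriers for drug uptake 4 rose and 6 fell (median -0.15). These counts are read against 43.7% of all genes lower and 21.9% higher.

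Most marker lists of other cell types had called members in the same comparison. Of 12 endothelial markers 1 rose and 8 fell, and their summed signal, in units of the array's 75th percentile, was 19.0 to 38.0 in TH-MYCN SMG against 37.6 to 56.7 in wild-type SMG. Of 12 glial markers none rose and 10 fell, with sums of 86.2 to 133 in TH-MYCN SMG against 186 to 223 in wild-type SMG. Of 12 fibroblast markers 1 rose and 10 fell, and of 9 markers of smooth muscle and pericytes none rose and 8 fell. Mast cell markers fell in 4 of 5 cases (median -2.32) and lymphocyte markers in 5 of 6, while of 13 sympathoadrenal genes 2 rose and 8 fell. None of 5 erythroid and 3 adrenal cortex markers was called, and 1 of 7 adipocyte markers fell. The part of these cells in the falls of Abcb1a, Abcb1b, Abcc4, Abcc5 and Abcg2 was not tested. Macrophage markers went with Abcc3, since 8 of 10 rose and 1 fell, and their sum was 35.7 to 68.5 in TH-MYCN SMG against 21.9 to 34.0 in wild-type SMG. Aif1, a calcium-binding protein of macrophages, rose by 1.78 (SE 0.17, limma adjusted p = 2.51e-07). The part of macrophages in the Abcc3 result was not tested. All 17 mitosis genes rose (median 5.54).

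TH-MYCN SMG differed among themselves in the RNA of mitosis genes, and 6 of the 7 exporters were related to it. The mitosis score, the mean log2 level of 17 mitosis genes, was 2.21, 2.46, 2.10, 0.33, 1.22, 1.62, 1.26 and 2.27 in TH-MYCN SMG 1 to 8, so replicate 4 was the lowest. Ganglia with more mitosis RNA had more Abcc3 and less Abcg2, Abcc5, Abcb1a, Abcb1b and Abcc4. 7 relations were computed with exact permutation tests over 8 samples, and p-values were adjusted over 15829 genes put through the same test, of which 16.8% were called positive and 22.1% negative.

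Abcg2 had a Pearson r of -0.98 (two-sided exact permutation p = 0.000298, adjusted p = 0.00402) and a Spearman rho of -0.91 (exact permutation p = 0.00456). With the 2 ganglia most distant from the median score left out, r was -0.96, and with each slide centred on its own mean -0.98 (exact permutation p = 0.00521). For Abcc5 r was -0.97 (exact permutation p = 0.000322, adjusted p = 0.00417), rho -0.93 (exact permutation p = 0.00223), r without the 2 samples -0.92 and within slides -0.98. For Abcb1a r was -0.94 (exact permutation p = 0.000174, adjusted p = 0.00329), rho -0.98 (exact permutation p = 0.000397), r without the 2 samples -0.96 and within slides -0.94. As far from 0 in the same direction as Abcg2, Abcc5 and Abcb1a were 0.265%, 0.581% and 3.70% of all genes.

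For Abcb1b r was -0.92 (exact permutation p = 0.000322, adjusted p = 0.00417), rho -0.95 (exact permutation p = 0.00114), r without the 2 samples -0.88 and within slides -0.92. For Abcc3 r was 0.92 (exact permutation p = 0.000893, adjusted p = 0.00702), rho 0.93 (exact permutation p = 0.00223), r without the 2 samples 0.88 and within slides 0.93. For Abcc4 r was -0.89 (exact permutation p = 0.00161, adjusted p = 0.00986), rho -0.91 (exact permutation p = 0.00456), r without the 2 samples -0.73 and within slides -0.92. As far from 0 in the same direction as Abcb1b, Abcc3 and Abcc4 were 6.16%, 7.01% and 11.3% of all genes. Abcc1 missed the threshold, with r of -0.41 (exact permutation p = 0.308, adjusted p = 0.422), rho of -0.24 (exact permutation p = 0.582), r without the 2 samples of -0.46 and -0.48 within slides. Over the same 8 ganglia the mitosis score had an r of 0.88 with the macrophage score and of -0.94 with the glial, -0.85 with the sympathoadrenal and -0.65 with the endothelial score, given as a description, and their part in these relations was not tested. Scores of neighbouring lists had an r with the mitosis score of -0.93 for the lipid and sterol ABC genes and -0.85 for the glutathione genes (n = 8). It was -0.94 for the mitochondrial, lysosomal, peroxisomal and peptide ABC genes, -0.75 for the sensors and partners and -0.76 for the uptake carriers. The other C subfamily genes had an r of -0.11 and the ABC translation factors of 0.01. A relation of this size was thus not particular to the exporters, nor common to all ABC lists. These are means over a list, while the exporters are single genes.

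**Figure D3:**
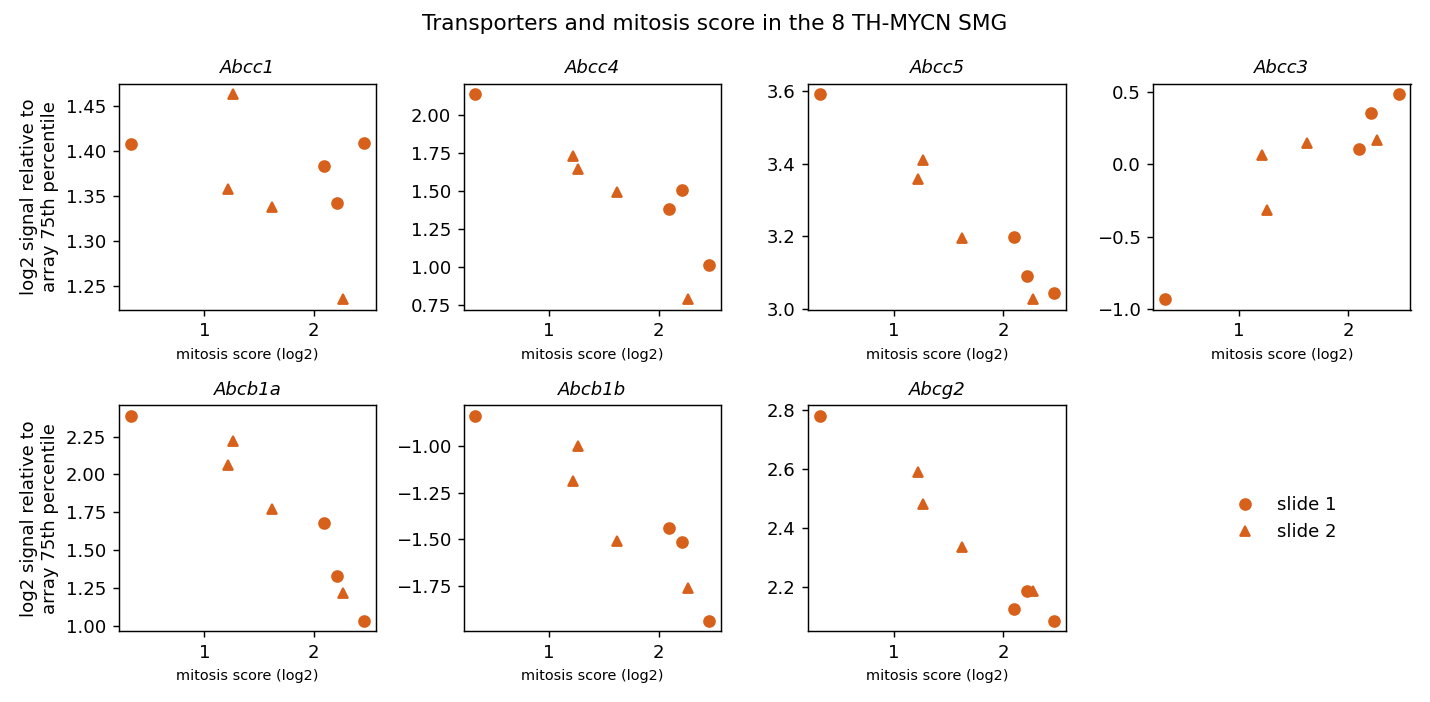
Each point is 1 TH-MYCN SMG, with the mitosis score (mean log2 of 17 genes) on the horizontal axis and the level of the gene (log2 relative to the array's 75th percentile) on the vertical axis; the marker gives the slide. Abcc3 rises with the score (r = 0.92), Abcc4, Abcc5, Abcb1a, Abcb1b and Abcg2 descend (r = -0.89 to -0.98), and Abcc1 shows no called relation.

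Primary spheres were set against TH-MYCN SMG to ask what differs between the cultured cells and the ganglion tissue of the same genotype. Abcb1a fell 33.4-fold in spheres and was measured above background in all 16 samples. Abcc3 fell as well, but only 1 of 8 primary spheres was well above background, so its fold is not exact. Abcb1b fell 3.45-fold, and Abcc4, Abcc5 and Abcg2 fell 1.97-fold, 1.93-fold and 1.84-fold. Abcc1 was 1.15-fold higher, a difference whose direction turned with the scaling. Of 15650 genes tested 83.2% were called, 50.2% higher and 32.9% lower, and the groups did not overlap for 57.8%, so a call alone says little here. Ganglia and spheres were hybridised on different slides, so no slide holds both groups. A difference between slides therefore cannot be told apart from one between the groups. The slide was added as a random block, which allows for likeness within a slide and does not remove this limit.

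Primary spheres minus TH-MYCN SMG gave a log2 difference of -5.70 for Abcc3 (SE 0.24, limma adjusted p = 1.65e-12), which rests on sphere signals that were well above background in 1 of 8 cultures. For Abcb1a it was -5.06 (SE 0.20, limma adjusted p = 8.14e-13), measured above background in all 16 samples, and larger in absolute size than that of 97.1% of all genes. It was -4.76 with the spheres of slide 3 and -5.37 with those of slide 4, against all TH-MYCN SMG. For Abcb1b it was -1.79 (SE 0.17, limma adjusted p = 3.98e-08), larger in absolute size than 82.3% of all genes. With normexp background correction in place of Agilent's, all 3 stayed called but the differences were smaller, at -2.79 for Abcc3, -3.82 for Abcb1a and -0.95 for Abcb1b. The neighbouring Abcb1a and Abcb1b were lower by unlike amounts under either correction, each on its own probe, and the difference between them was not tested.

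Abcc4 differed by -0.98 (SE 0.17, limma adjusted p = 5.1e-05) and Abcg2 by -0.88 (SE 0.12, limma adjusted p = 5.92e-06), or -0.69 and -1.07 with the spheres of slides 3 and 4. The brightest Abcc5 probe differed by -0.95 (SE 0.12, limma adjusted p = 1.48e-06), or -1.18 and -0.71 with the spheres of slides 3 and 4. Ranges of primary spheres and TH-MYCN SMG did not overlap for Abcc3, Abcb1a, Abcb1b, Abcg2 and, by its brightest probe alone, Abcc5. This is 5 of 7 members, beside 57.8% of all genes. With the slide as a random block these 5 genes and Abcc4 were called. The limma adjusted p ran from 1.47e-11 for Abcb1a to 0.00059 for Abcc4, and this block does not separate slides from groups. With the spheres of slides 3 and 4 taken singly, Abcc3 differed by -5.36 and -6.04, Abcb1b by -1.92 and -1.65, and Abcc4 by -0.92 and -1.04.

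Abcc1 differed by 0.20 (SE 0.08, limma adjusted p = 0.0329), or 0.08 and 0.32 with the spheres of slides 3 and 4. With the slide as a random block it was not called (limma adjusted p = 0.0715), and with the median of all genes, 0.27, set to 0 it turned to -0.08 (limma adjusted p = 0.39). Without TH-MYCN SMG 6 or 8, or primary sphere 1, 5, 6 or 7, the call ended as well, with limma adjusted p of 0.0512, 0.0603, 0.0541, 0.0682, 0.0627 and 0.0678. On the scale with that median at 0, the other 6 members stayed lower and called, with Abcc3 at -5.97, Abcb1a at -5.33, Abcb1b at -2.06, Abcc4 at -1.25, Abcc5 at -1.22 and Abcg2 at -1.15, and 5908 genes were higher against 6318 lower, in place of 7862 and 5155.

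The Abcc5 probes disagreed here by accession. Tested singly, where 83.1% of 20643 named probes were called, the dimmer probe for NM_013790 differed by -0.58 (SE 0.12, limma adjusted p = 0.000242). The probes for NM_176839 differed by -0.04 (95% interval -0.25 to 0.16, limma adjusted p = 0.681) and 0.20 (95% interval -0.01 to 0.41, limma adjusted p = 0.0739), and neither was called. The mean of the kept probes fell by 0.34 on the log2 scale, so the size of the Abcc5 fall depends on the probe.

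**Figure D4:**
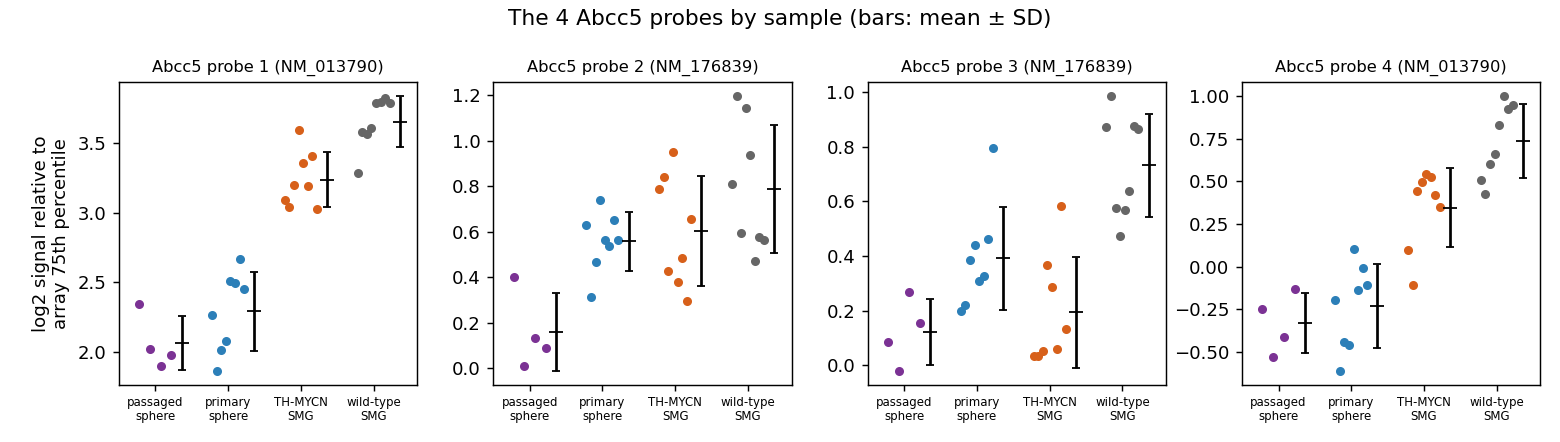
Points are samples and bars the mean ± SD of the 4 Abcc5 probes (log2 signal relative to the array's 75th percentile), each with its own vertical axis. Probes 1 and 4 step down from TH-MYCN SMG to primary spheres by 0.95 and 0.58. The ranges of primary spheres and TH-MYCN SMG overlap for probes 2, 3 and 4 and are separate for probe 1.

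All 13 tested lipid and sterol ABC genes fell in primary spheres (median -3.85, beside 0.27 for all genes), among them Abca8b by 4.57 (SE 0.17, limma adjusted p = 3.71e-13). Abca1, the cholesterol exporter, fell by 5.74 (SE 0.79, limma adjusted p = 3.84e-06) and was well above background in 4 of 8 spheres. Of 11 mitochondrial, lysosomal, peroxisomal and peptide ABC genes 3 rose and 7 fell (median -1.12), and of 6 other C subfamily genes 1 rose and 3 fell (median -0.68). The falls included Abcc12 (-1.74, SE 0.19, limma adjusted p = 2.76e-07) and Abcc9 (-1.47, SE 0.15, limma adjusted p = 1.28e-07). The rise was that of Abcc10, a drug-carrying relative of Abcc1, at 0.24 (SE 0.10, limma adjusted p = 0.0273), which is smaller than the median of all genes. The ABC translation factors, which do not cross membranes, went the other way, since 3 of 4 rose and none fell (median 1.00), led by Abcf2 (1.23, SE 0.08, limma adjusted p = 6.74e-10) and Abce1 (1.17, SE 0.11, limma adjusted p = 2.83e-08).

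Of 18 glutathione genes 2 rose and 11 fell (median -1.69), including Gstm2, a cytosolic transferase (-4.76, SE 0.13, limma adjusted p = 4.79e-15), and Mgst1 (-4.51, SE 0.29, limma adjusted p = 3.11e-10). Of 13 sensors and partners 3 rose and 8 fell (median -0.56), with Ahr, the aryl hydrocarbon receptor, at -2.17 (SE 0.14, limma adjusted p = 3.23e-10). Of 12 uptake carriers 4 rose and 7 fell (median -0.46), with Slc22a4, the ergothioneine carrier, at -1.90 (SE 0.13, limma adjusted p = 5.34e-10).

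Most markers of macrophages, endothelium, fibroblasts and glia were lower in the spheres. All 10 tested macrophage markers fell (median -8.06), with a summed signal of 0.773 to 1.33 in primary spheres against 35.7 to 68.5 in TH-MYCN SMG, and 6 or 7 of the 10 were not well above background in each sphere. Of 12 endothelial markers 1 rose and 11 fell (median -3.31), with sums of 12.4 to 19.6 in primary spheres against 19.0 to 38.0 in TH-MYCN SMG, so that the sums overlapped. Egfl7, a secreted protein of endothelium, stood at 3.26 ± 0.21 in primary spheres and 4.44 ± 0.46 in TH-MYCN SMG, and Kdr, a VEGF receptor and the marker that rose, at 2.19 ± 0.34 in primary spheres and 0.85 ± 0.54 in TH-MYCN SMG (SD, n = 8 each), while Cldn5 and Cdh5, which form endothelial junctions, were not well above background in any primary sphere. Of 12 fibroblast and 12 glial markers 1 of each list rose and 11 fell, the fibroblast exception being Fbln1, a matrix protein (1.70, SE 0.20, limma adjusted p = 6.38e-07). Of 3 adrenal cortex markers 2 rose and none fell, and of 6 lymphocyte markers 2 rose and 3 fell. Their part in the falls of Abcc3 and Abcb1a was not tested. Of 13 sympathoadrenal genes 5 rose and 7 fell (median -0.63), with Dbh at -2.05 (SE 0.10, limma adjusted p = 1.05e-11). Th was the 1 not called, at 7.81 ± 0.15 in primary spheres and 7.72 ± 0.34 in TH-MYCN SMG (SD, n = 8 each).

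The comparison of passaged with primary spheres asks whether longer culture altered the exporters. Of the 6 members tested only Abcb1b was called, lower in passaged spheres, where 1 of 4 cultures was well above background on both arrays. Of 14156 genes tested 11.7% were called, 6.53% lower, and the groups did not overlap for 9.17%. Abcb1b differed by -0.99 (SE 0.20, limma adjusted p = 0.0106), with -1.15 within slide 3, where it was called, and -0.84 within slide 4 (limma adjusted p = 0.0782). The passaged arrays were the dimmest. With normexp background correction in place of Agilent's, the difference was -0.16 and was not called (limma adjusted p = 0.421). With the replicate number as a block it was -0.86 (limma adjusted p = 0.104).

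The remaining members missed the threshold. Abcg2 differed by 0.39 (95% interval -0.01 to 0.79, limma adjusted p = 0.186) and Abcb1a by 0.37 (95% interval -0.03 to 0.76, limma adjusted p = 0.206). Within slide 3 Abcb1a was called higher in passaged spheres (0.43, limma adjusted p = 0.0431), and within slide 4 it was not (0.30). For Abcc4 the difference was 0.10 (95% interval -0.24 to 0.45), for Abcc1 0.01 (-0.23 to 0.25, turning below 0 with the median of all genes at 0) and for Abcc5 -0.23 (-0.56 to 0.10), with within-slide values of 0.04 and 0.16, 0.17 and -0.14, and -0.06 and -0.40. Abcc3 was not tested because too few samples were well above background, and with no such filter it differed by 0.86 (SE 0.46, limma adjusted p = 0.199).

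Among Abcc5 probes tested singly, where 10.4% of 18673 were called, 1 probe for NM_176839 differed by -0.40 (SE 0.09, limma adjusted p = 0.0169) and the other 3 missed the threshold, at -0.27, -0.23 and -0.10. Counts in the neighbouring families are read against 11.7% of all 14156 genes called. Of 9 tested lipid and sterol ABC genes 1 fell (Abca7, -0.59, SE 0.13, limma adjusted p = 0.0162), of 9 mitochondrial, lysosomal, peroxisomal and peptide ABC genes 1 fell (Abcd4, -0.57, SE 0.12, limma adjusted p = 0.0129), and none of 5 other C subfamily genes or 4 translation factors was called. Of 16 glutathione genes 1 rose (Gsr, glutathione reductase, 0.36, SE 0.10, limma adjusted p = 0.0419) and 1 fell, of 13 sensors and partners 2 fell, among them Ahr (-0.70, SE 0.20, limma adjusted p = 0.0398), and of 11 uptake carriers 1 rose (Slc22a4, 0.73, SE 0.21, limma adjusted p = 0.0462). Of 17 mitosis genes 3 rose, of 10 glial markers 1 rose and 3 fell, and none of 3 macrophage and 7 endothelial markers was called.

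For each exporter, the 2 genes whose levels ran most alike over the 28 samples were found among 14372 genes, by the root mean square difference of log2 values after centring each gene on its mean. Abcb1a was nearest to Frem1 (0.28) and Kcnc4 (0.31), Abcb1b to Nme5 (0.27) and Ak8 (0.29), and Abcg2 to Ugp2 (0.20) and P4ha2 (0.21). Kcnc4, a potassium channel subunit, averaged -3.54 in passaged spheres, -3.35 in primary spheres, 1.5 in TH-MYCN SMG and 2.63 in wild-type SMG, close in shape to Abcb1a. Abcc1 was nearest to Sec31a (0.11) and Plscr3 (0.12), Abcc4 to Pcdhac2 (0.17) and Tom1 (0.18), and Abcc5 to Dpp7 (0.15) and Inha (0.16). Abcc3 was nearest to Itgax (0.51), an integrin of myeloid cells, and Tlr12 (0.52), an innate immune receptor, with Itgax at -6.61 ± 0.30 in passaged spheres (SD, n = 4), -7.36 ± 0.09 in primary spheres, -1.41 ± 0.31 in TH-MYCN SMG and -3.63 ± 0.34 in wild-type SMG (SD, n = 8 each). The sphere levels of Itgax lie under the lowest signal well above background on any sphere array (-5.56 to -5.22 on primary and -5.05 to -4.11 on passaged sphere arrays), and Abcc3 was not well above background in most spheres, so this likeness carries little information on the spheres. Mean levels of Tlr12 (-6.54 in passaged and -7.13 in primary spheres) and Frem1 (-6.54 and -7.26) lie under these signals too. So does that of Ak8 in passaged spheres, at -5.20, and these likenesses are limited in the same way.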

How the data were processed

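Cy3 was put on 40 or 200 ng of RNA per array (integrity number over 8), per the labels' protocols. The amount used for each sample is not stated, and the extraction protocol names spheres alone. Per the file headers, spots were read with Agilent Feature Extraction 11.5.1.1, and the deposited processed spot intensity is background-subtracted and not normalized between arrays. The authors' deposited value table is on a log2 scale. 99.86% of its entries matched the values used here, apart from an offset for each probe, within 0.05, so scale and direction are known and the reference of the centring stays unknown. Its column medians ran from 0.15 to 0.51 on passaged sphere arrays, -0.08 to 0.07 on primary sphere arrays, -0.39 to -0.11 on TH-MYCN SMG arrays and -0.48 to -0.02 on wild-type SMG arrays. The 75th percentile of signal was 323 to 539, 464 to 564, 840 to 1358 and 523 to 989 in the same order, lowest in passaged spheres.

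Probe accessions were matched without versions to RefSeq (GRCm38.p6), which named 27235 of 55681 probes. Control spots were left out. Flagged spots (109 to 211 per array) were left out too, unless all spots of a probe were flagged, as for up to 33 probes per array. None was saturated, and each array was scaled on the log2 scale to the 75th percentile of its non-control spots, flagged ones included. A probe was kept if well above background in at least 4 samples of a comparison, and the kept probe with the highest mean stood for its gene. Groups were compared with limma 3.58.1 in R 4.3.3 (lmFit and eBayes, two-sided, Benjamini-Hochberg adjustment), and the script was tested on simulated data. Named genes were all members, up to 4 called genes per list and comparison with the largest difference, and for each member the 2 of most similar profile. Kdr, Egfl7, Fbln1 and Th were named besides, although their differences were not among the largest of their lists. List genes that no sphere array showed well above background were passed over, apart from endothelial markers. Relations to the mitosis score were adjusted over all genes rather than over the members as planned. The members and lists were chosen with earlier results of these data known, and the fits with the spheres of 1 slide or with the median of all genes set to 0 were added after seeing the data.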

Additional observations from a re-analysis of the deposited data

Results flagged for a closer look

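Of 40 groups of values of the 10 probes checked, 1 had a sample far from the others, where chance marks about 1 in 20. A probe of Abcc5 for NM_176839 read 0.80 in primary sphere 8, against 0.46 in the nearest of the other primary spheres.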

How the results depend on the processing

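Abcc3, Abcb1a, Abcb1b, Abcc4 and Abcg2 kept their direction and call in all 30 alternatives of the comparison between genotypes, and these and Abcc5 did so in all 30 of primary spheres minus TH-MYCN SMG, although sizes moved there: normexp gave -2.79 for Abcc3, -3.82 for Abcb1a and -0.95 for Abcb1b, against -5.70, -5.06 and -1.79, and the mean of a gene's probes gave -0.34 for Abcc5, against -0.95. No alternative rested on the dimmer Abcc5 probes alone. Those for NM_176839, tested singly, were not called between primary spheres and TH-MYCN SMG (-0.04 and 0.20). The causes of the following changes were not tested. Between genotypes Abcc1 was not called with normexp background (-0.163), within slide 1 (-0.117) or with the median of all genes at 0 (-0.022), nor Abcc5 within slide 1 (-0.28) or with that median at 0 (-0.195). Between primary spheres and TH-MYCN SMG Abcc1 was not called with normexp (0.113), quantile normalization (0.026), the slide as a random block (0.195) or the spheres of slide 3 (0.075), turned to -0.077 with the median at 0, and ran from 0.15 to 0.238 without 1 sample each. The calls split into 8932 higher and 4212 lower with normexp and 6682 and 5904 with quantile normalization.

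Passaged minus primary spheres gave 1653 calls, but 982 with normexp, 5284 with no filter on dim probes, 1032 within slide 3, 988 within slide 4 and 780 to 1742 without 1 sample each, with 810 without passaged sphere 2 and 780 without passaged sphere 4. They split into 503 higher and 1056 lower with quantile normalization, against 729 and 924. Abcb1b was not called with normexp (-0.162) or within slide 4 (-0.836), and ran from -1.153 to -0.837 without 1 sample each. Abcb1a was called within slide 3 (0.434). Abcc1, near 0, turned to -0.022 with quantile normalization, -0.005 in the authors' table, -0.144 within slide 4 and -0.004 with the median at 0, and ran from -0.05 to 0.056 without 1 sample each. Same-numbered samples correlated at -0.011 to 0.372, -0.075 to 0.145 and -0.009 to 0.212 in the 3 comparisons, not all above 0.1, and the same number was the best match for 4 of 8, 1 of 8 and 3 of 4 samples, so the numbers were not taken as pairs, though the labels leave a shared origin unstated. With the number as a replicate block, passaged minus primary spheres had 949 calls, Abcb1b was at -0.855 (limma adjusted p = 0.104) and Abcc5 at 0.006, and no other member's call changed. Genes called with the block were 11226 between genotypes, against 10398, and 13056 between primary spheres and TH-MYCN SMG, against 13017. Brightness limits what can be said of Abcc3 and Abcb1b in spheres.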
